A study of Mus musculus with 4 samples.

Results

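Proliferating CD4 T cells were taken from single-cell libraries of tumor-bearing and normal mouse lung and were chosen by their own transcripts, the measured UMIs of 8 genes. A cell was a member if it held 3 or more unique transcript counts (UMIs) summed over these genes of cell division, Mki67, Top2a, Birc5, Pclaf, Ube2c, Cdk1, Ccnb2 and Rrm2. Of 14217 kept cells, 114 were members, or 0.802%. The tumor library gave 87 of them, 51 with a Foxp3 UMI (Foxp3+) and 36 without (Foxp3-). The normal library gave 27, of which 5 were Foxp3+ and 22 Foxp3-. Reference cells were those of the same library and Foxp3 state with 0 UMIs of the 8 genes, numbering 863, 5572, 191 and 6456 in the same order. Cells with 1 or 2 such UMIs, 233, 380, 10 and 398 of them, were in neither group.

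The study compared CD4 T cells of lungs carrying TC1 tumor cells, a transplantable mouse line of lung epithelial origin given into the tail vein, with CD4 T cells of lungs from age-matched mice without tumor. All mice were C57BL/6 with no further allele or agent named, and the tumor-bearing ones were killed 3 weeks after the injection. Live CD4+ cells were sorted by flow cytometry and each tissue gave 1 library of 5′ transcripts and 1 of receptor sequences, with the number of pooled mice not stated in the labels. With 1 library per tissue, tissue and library cannot be told apart, cells are not replicates, and no test between tissues was possible. The intervals in brackets are exact 95% intervals that cover counting error only, and a ratio always compares CPM, the summed counts of a gene or list per 1000000 UMIs.

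A T cell that leaves quiescence first loads MCM helicases onto replication origins, then copies its DNA and makes the nucleotides, histones and chromatin proteins this needs, and then builds a spindle and divides. E2F factors turn on the replication genes, and the MuvB complex with B-MYB and FOXM1 turns on the mitotic ones. In the lung, regulatory T cells (Tregs), marked by the transcription factor Foxp3, and conventional CD4 T cells both divide after contact with antigen and cytokines such as IL-2.

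All 114 members carried UMIs of Cd3 genes or Trac, components of the T cell receptor complex, and 104 had a receptor contig in the paired library. Cd4 was seen in 90 members, Cd8a in 0 and Cd8b1 in 18. Markers of other cells were low in CPM but not always below the reference. Erythroid genes had 0 UMIs and the gamma-delta T and NK list at most 1 UMI in a stratum. The B cell list stood at 0 to 40.3 CPM, and in tumor Foxp3- members its 12.7 CPM, 4 UMIs, were 5.66 times (1.49 to 15.4) the reference level of 2.25. The myeloid list stood at 95.6 to 199 CPM in members, and in normal Foxp3- members its 140 CPM were 1.99 times (1.34 to 2.85) the 70.2 of the reference. In these normal Foxp3- members 3 of the list's 10 genes were seen, in 16 of 22 cells and with at most 6 UMIs in a cell. In tumor Foxp3+ members, where the list ratio was 1.11 (0.900 to 1.36), 102 of its 110 UMIs came from Cst3, a broadly expressed protease inhibitor. Adgre1, Fcer1g, Flt3, H2-Aa and Tyrobp were at 0 in members of every stratum. The epithelial list stood at 0 to 12.7 CPM against 2.47 to 39.1, with Cdh1, Krt8, Krt19 and Sftpc at 0. The endothelial and stromal list stood at 77.9 against 51.1 CPM in tumor Foxp3+ cells, a ratio of 1.52 (1.07 to 2.12), and at 38.2 to 60.4 against 83.1 to 125 in the other strata, nearly all from Pecam1, with Col1a1, Col3a1 and Dcn at 0. Of the B cell genes Ms4a1 and Jchain were at 0. The part of RNA from such cells in the results was not tested.

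The libraries held 35633167 and 31697386 UMIs, with a median of 4173 and 3906 per kept cell. Members were deeper. Their median UMI counts were 9829 in tumor Foxp3+, 7692 in tumor Foxp3-, 9796 in normal Foxp3+ and 10036 in normal Foxp3- cells, against 4484, 4081, 3938 and 3870 in the references. Mitochondrial UMIs had a median of 1.52% to 2.15% in members and 1.59% to 2.59% in the references. In the tumor library 12 members exceeded the deepest reference cell of their stratum. Of all members 18 had 2 productive alpha chains. They were 13 of 51 tumor Foxp3+, 1 of 36 tumor Foxp3-, 2 of 5 normal Foxp3+ and 2 of 22 normal Foxp3- members. Reference cells were not counted for this, and whether members had 2 alpha chains more often was not tested. Among tumor barcodes removed for too many receptor chains 10 of 533 met the 3-UMI rule, 1.88% (0.903 to 3.42), against 1.22% of kept cells. In the normal library 2 of 602 did, 0.332% (0.0403 to 1.19), against 0.381% of kept cells. The part of cell pairs in the results was not tested. The libraries shared 74 kept barcodes, and 0 of them were members.

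Members made up 4.45% of Foxp3+ and 0.601% of Foxp3- cells in the tumor library. The intervals, 3.33 to 5.81 and 0.421 to 0.831, did not overlap. In the normal library the shares were 2.43% (0.793 to 5.57) and 0.320% (0.201 to 0.484). Within tumor members 58.6% (47.6 to 69.1) were Foxp3+, against 13.4% (12.6 to 14.3) of reference cells. In normal lung these shares were 18.5% (6.30 to 38.1) and 2.87% (2.49 to 3.30).

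The UMI rule counts more cells where cells are deeper, and every cell was therefore also thinned to 2417 UMIs, which left out 393 tumor and 708 normal cells below that number. The thinned shares were 0.900% (0.389 to 1.77) of tumor Foxp3+ and 0.444% (0.290 to 0.650) of tumor Foxp3- cells, whose intervals overlapped. In thinned normal cells they were 0 of 148 Foxp3+ cells, which allows a share of up to 2.46%, and 0.145% (0.0661 to 0.274) of Foxp3- cells. When members were chosen at full depth and only the Foxp3 call was thinned, 40.0% (29.5 to 51.2) of tumor members were still Foxp3+, against 10.9% (10.1 to 11.7) of reference cells. With both the rule and the Foxp3 call thinned, 8 tumor members were Foxp3+ and 26 were Foxp3-, and 13.2% (12.4 to 14.0) of thinned tumor cells were Foxp3+. The difference in share between Foxp3 states was then not larger than its counting error.

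**Figure D1:**
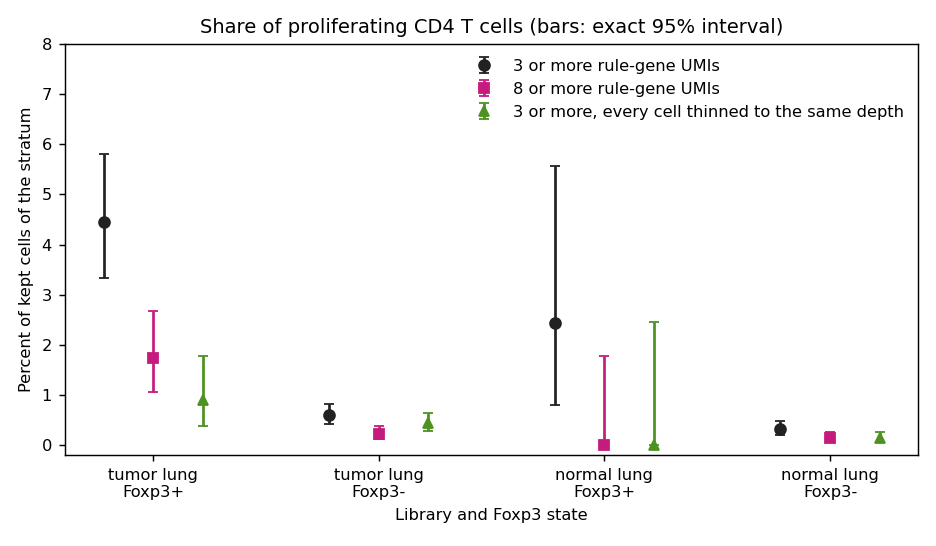
Percent of kept cells in each library and Foxp3 state that met the rule at 3 or more UMIs, at 8 or more UMIs, and at 3 or more after thinning every cell to 2417 UMIs, with exact 95% intervals as bars. Tumor Foxp3+ cells stand at 4.45%, 1.74% and 0.900% by these 3 rules and normal Foxp3- cells at 0.320%, 0.145% and 0.145%.

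The genes that chose the members are a description and not a result. A member held 3 to 68 of their UMIs in tumor Foxp3+ cells with a median of 5, 3 to 73 in tumor Foxp3- with a median of 6, 3 to 5 in normal Foxp3+ with a median of 3, and 3 to 52 in normal Foxp3- with a median of 6.5. The rule's edge was crowded: 29 members had exactly 3 UMIs, and 120 cells just outside it had 2. Ube2c, the ubiquitin-conjugating enzyme of the anaphase-promoting complex, was the most often detected in tumor Foxp3+ members, with a UMI in 42 of 51 cells. Cdk1, the mitotic kinase, was the least often detected there, in 5 cells. In normal Foxp3- members Ube2c was seen in 17 and Cdk1 in 6 of 22 cells. Pclaf, a PCNA-binding replication factor, had 17 of 51 tumor Foxp3+, 15 of 36 tumor Foxp3- and 14 of 22 normal Foxp3- members positive. Rrm2, a subunit of ribonucleotide reductase, was seen in 10, 13 and 9 of these cells.

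In 21 members a single gene supplied every UMI, and none of these held more than 5. That gene was Ube2c in 11 cells, Rrm2 in 6 and Top2a, the topoisomerase that untangles chromosomes, in 4. Genes outside the rule separated the members by their UMI count. The 49 cells with 3 to 4 UMIs were not above their reference cells in licensing genes. Summed CPM of 19 origin licensing and firing genes was 255 (189 to 337) in such tumor Foxp3+ cells against 367 (349 to 386) in the reference, and 329 (231 to 453) against 434 in tumor Foxp3- cells. The list of 46 spindle, kinetochore and cytokinesis genes stood at 744 (627 to 876) against 562 (539 to 585) and at 453 (337 to 596) against 455 CPM. These tumor Foxp3+ cells thus lay below the reference in licensing genes and above it in spindle genes, and their quiescence list was also lower, at 2799 against 4278 CPM.

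The 44 cells with 8 or more UMIs had a higher summed CPM than the reference in both lists. Their licensing genes reached 868 CPM in 20 tumor Foxp3+, 1725 in 14 tumor Foxp3- and 3096 in 10 normal Foxp3- cells. Their spindle genes reached 2755, 2808 and 2547 CPM. These are sums over cells, and of the cells with 8 or more UMIs 7 of 20, 3 of 14 and 1 of 10 were raised in neither replication nor spindle genes by the count per cell given further on. By replication and spindle genes, outside the rule, most but not all cells with 8 or more UMIs bore out the label of dividing cells. Most cells with 3 to 4 did not. The summed list of 14 chromatin protein genes of cycling cells was above the reference in cells with 3 to 4 UMIs. It stood at 3745 (3477 to 4029) against 3264 CPM in tumor Foxp3+ and 2771 (2472 to 3096) against 2288 in tumor Foxp3- cells. In normal lung it stood at 6019 (5281 to 6830) against 2605 in Foxp3+ and 4222 (3670 to 4833) against 2436 in Foxp3- cells. Counts at full depth were used for this comparison, and the cells with 3 to 4 UMIs were also deeper than the reference, with a median of 9517 UMIs in tumor Foxp3+.

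**Figure D2:**
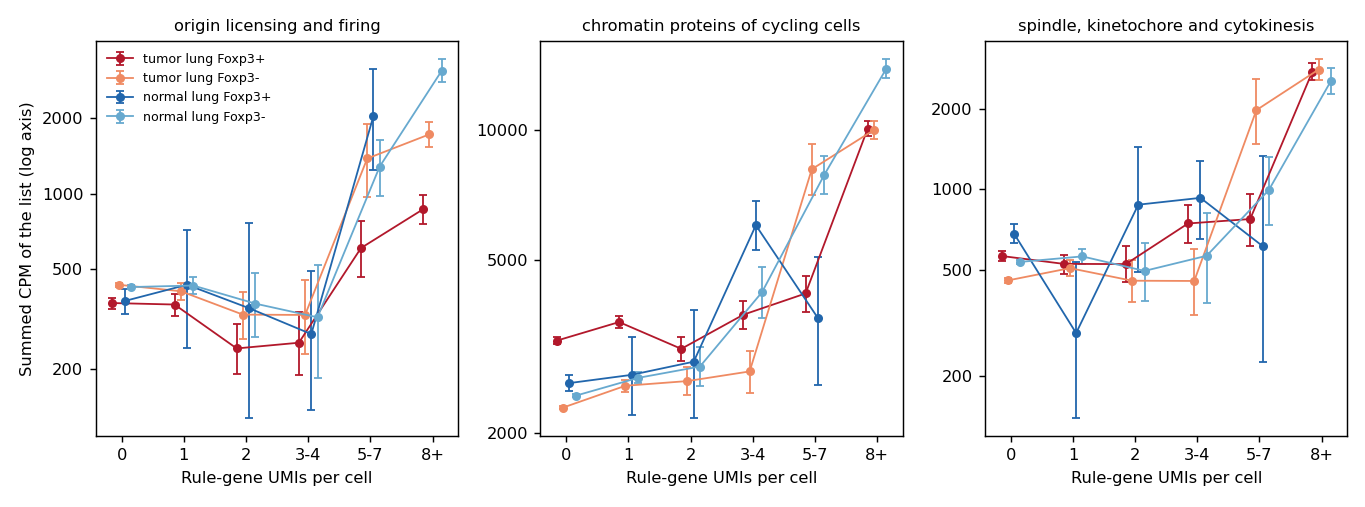
Summed CPM (log axis) of 3 gene lists without the rule genes against the number of rule-gene UMIs per cell, in each library and Foxp3 state, with exact 95% intervals as bars. Cells with 8 or more UMIs stand highest in the licensing and spindle lists of each stratum that has them, where origin licensing is 868 CPM in tumor Foxp3+ and 3096 CPM in normal Foxp3- cells.

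The promoters of 4 rule genes are shown because several of the rule genes carry short motifs of cell cycle control. Each sequence is the 250 bases before the annotated start in RefSeq GRCm38.p6, read 5′ to 3′ on the gene's strand. Capitals mark matches on either strand to TTTGAA, the core of the cell cycle homology region bound by the MuvB complex, to CCAAT, bound by NF-Y, and to 4 strings like the sites of E2F factors. The first of these strings is TTCCCGC and the second is TTGGCGC. The third is TTCGCGC, and the last of them is TTGCCGC. Ube2c lies at chr2:164769679-164769928 on the plus strand, Cdk1 at chr10:69352913-69353162 on the minus strand, Ccnb2 at chr9:70421555-70421804 on the minus strand and Rrm2 at chr12:24708004-24708253 on the plus strand. In Ube2c a CCAAT on one strand overlaps one on the other in a single stretch of capitals, and different motifs did not overlap.
Ube2c: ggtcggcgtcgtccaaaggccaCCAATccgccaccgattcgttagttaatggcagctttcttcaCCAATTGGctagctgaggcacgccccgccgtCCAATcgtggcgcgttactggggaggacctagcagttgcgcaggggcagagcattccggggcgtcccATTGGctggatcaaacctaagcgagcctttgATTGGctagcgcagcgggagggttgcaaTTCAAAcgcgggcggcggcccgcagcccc
Cdk1: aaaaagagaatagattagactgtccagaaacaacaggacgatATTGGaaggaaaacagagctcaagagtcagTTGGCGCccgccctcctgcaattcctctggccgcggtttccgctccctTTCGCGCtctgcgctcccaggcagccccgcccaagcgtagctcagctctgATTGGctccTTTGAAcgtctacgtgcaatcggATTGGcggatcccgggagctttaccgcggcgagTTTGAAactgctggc
Ccnb2: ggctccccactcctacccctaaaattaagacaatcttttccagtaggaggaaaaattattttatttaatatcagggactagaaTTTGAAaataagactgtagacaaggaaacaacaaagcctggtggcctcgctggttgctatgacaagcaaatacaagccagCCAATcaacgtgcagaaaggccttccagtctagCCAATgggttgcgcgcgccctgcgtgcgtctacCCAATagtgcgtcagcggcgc
Rrm2: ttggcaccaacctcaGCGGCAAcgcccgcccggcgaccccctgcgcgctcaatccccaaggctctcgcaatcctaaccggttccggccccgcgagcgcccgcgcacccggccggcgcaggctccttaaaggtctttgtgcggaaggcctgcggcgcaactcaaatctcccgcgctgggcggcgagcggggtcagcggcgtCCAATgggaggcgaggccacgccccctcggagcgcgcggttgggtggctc

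Over the 8 rule genes TTTGAA was found in 5 promoters and CCAAT in 7, against 16.3% and 34.5% of 27025 mouse promoters of the same length. The E2F-like strings were in 3, against 7.97%. Cdk1 held 2 TTTGAA, 3 CCAAT and 2 E2F-like matches, while Rrm2, whose product is needed in S phase, held no TTTGAA, 1 CCAAT and 1 E2F-like match. Birc5 held none of the motifs, and Pclaf held 2 CCAAT and no other match. The same motifs were counted in the cycle gene lists, and differences between lists were not tested. TTTGAA was in 13 of 39 spindle promoters (33.3%), 3 of 14 licensing promoters (21.4%) and 3 of 23 replication fork promoters (13.0%). E2F-like strings were in 5, 6 and 8 of these promoters, or 12.8%, 42.9% and 34.8%. CCAAT was in 69.2%, 71.4% and 60.9%. A match is a run of letters and not a measured binding site.

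Against reference cells of the same library and Foxp3 state, a gene was called higher at a ratio of 2 or more and lower at 0.50 or less, if its mean CPM over both groups was 20 or more. In tumor Foxp3+ cells 142 of 5564 genes measured were higher, 2.55%, and 302 were lower, 5.43%. In tumor Foxp3- cells 726 of 5334 were higher, 13.6%, and 298 were lower, 5.59%. The median log2 ratio over all genes was -0.07 and 0.22. After scaling by the median of ratios the tumor Foxp3- split became 449 higher and 468 lower, and the tumor Foxp3+ split 175 and 249. Because the rule chose members by expression, these contrasts are descriptions. They are also relative: members held 2.24 times the UMIs of reference cells per cell in tumor Foxp3+, 2.06 times in tumor Foxp3- and 2.50 times in normal Foxp3- cells, and a lower CPM need not be fewer UMIs per cell. Normal strata, with fewer than 30 members, are described by summed lists.

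Origin licensing and firing genes had a higher summed CPM in members of every stratum, though in normal Foxp3+ cells 1 cell held 20 of the 31 UMIs. The list ratio was 1.65 (1.46 to 1.86) in tumor Foxp3+, 2.75 (2.47 to 3.05) in tumor Foxp3- and 4.81 (4.36 to 5.29) in normal Foxp3- cells. Of 11 genes measured, 4 were higher and 0 lower in tumor Foxp3+, with a median log2 ratio of 0.74, and 6 were higher and 0 lower in tumor Foxp3-, with a median of 1.84. Mcm6, a subunit of the replicative helicase, stood at 134 against 80.9 CPM in tumor Foxp3+ cells, at 169 against 35.8 in tumor Foxp3- and at 349 against 41.9 in normal Foxp3-. Its partner Mcm3 had ratios of 2.68 (1.81 to 3.89), 8.24 (6.16 to 10.8) and 10.3 (7.60 to 13.7). Summed over members, both genes were above the reference in each of these groups. Cell by cell this was not general: licensing and fork genes together had a median of 986 CPM per member against 1063 per reference cell in tumor Foxp3+, 1144 against 1135 in tumor Foxp3- and 1672 against 1102 in normal Foxp3- cells.

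Replication fork genes showed the same order of strata, with list ratios of 1.29 (1.17 to 1.42), 2.47 (2.27 to 2.68) and 3.79 (3.49 to 4.11). Of those measured, 2 of 15 were higher in tumor Foxp3+ and 16 of 22 in tumor Foxp3- cells, with 0 lower in either. Pcna, the sliding clamp of the DNA polymerases, stood at 50.8 against 66.7 CPM in tumor Foxp3+ members, at 178 against 106 in tumor Foxp3- and at 228 against 92.6 in normal Foxp3-. The clamp was thus below the reference in the first of these groups and above it in the others. Lig1, the ligase that joins Okazaki fragments, had ratios of 1.16 (0.738 to 1.76), 10.6 (6.99 to 15.6) and 23.6 (16.3 to 33.2). Slbp, which binds the stem-loop of histone messages, had a ratio of 0.865 (0.651 to 1.13) in tumor Foxp3+ and 1.97 (1.49 to 2.57) in normal Foxp3- cells.

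Nucleotide synthesis genes were 1.38 (1.26 to 1.51), 2.04 (1.87 to 2.22) and 2.49 (2.26 to 2.74) times the reference. Of genes measured, 3 of 17 were higher in tumor Foxp3+ and 9 of 19 in tumor Foxp3- cells, with 0 lower. Dut, which clears dUTP before it enters DNA, stood at 87.0 against 59.3, 201 against 43.1 and 307 against 42.7 CPM. Paics, of purine synthesis, stood at 121 against 72.5, 191 against 64.2 and 210 against 59.5.

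Chromatin proteins of cycling cells were among the highest lists, at 2.07 on 3727 member UMIs, 3.16 (3.03 to 3.30) and 4.21 (4.03 to 4.39) times the reference. In tumor Foxp3+ cells 4 of 11 measured were higher and in tumor Foxp3- cells 10 of 12, with 0 lower. The histone variant gene H2afz stood at 2434 against 1454 CPM in tumor Foxp3+, 1784 against 494 in tumor Foxp3- and 2404 against 490 in normal Foxp3- cells. Hmgb2, a chromatin-bending protein of dividing cells, stood at 1347 against 356, 1762 against 318 and 3135 against 436. Hmgn2, a nucleosome-binding protein, was 4.34 (3.78 to 4.96), 2.80 (2.47 to 3.17) and 3.06 (2.69 to 3.48) times the reference. In tumor lung reference Foxp3+ cells held more H2afz than reference Foxp3- cells, so a higher member level gave a smaller ratio for this gene. The Hmgb2 levels of these references were closer, at 356 and 318 CPM.

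Spindle, kinetochore and cytokinesis genes had ratios of 2.99 (2.77 to 3.23) in tumor Foxp3+, 4.16 (3.82 to 4.51) in tumor Foxp3- and 3.25 (2.93 to 3.61) in normal Foxp3- cells. The higher genes numbered 8 of 12 measured in tumor Foxp3+ and 14 of 17 in tumor Foxp3- cells, with 0 lower in both. Cenpa, the histone variant that marks centromeres, stood at 348 against 115, 303 against 104 and 326 against 103 CPM. Cdca8, of the chromosomal passenger complex that also holds the rule gene Birc5, stood at 99.7 against 1.68 CPM in tumor Foxp3+ and 102 against 1.36 in tumor Foxp3- cells. Smc4, of condensin, was at or below the reference, with ratios of 1.00 (0.811 to 1.23), 0.733 (0.520 to 1.00) and 0.354 (0.210 to 0.560).

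Cyclins, kinases and phosphatases had list ratios of 1.36 (1.25 to 1.49), 1.77 (1.60 to 1.96) and 2.46 (2.18 to 2.76), with 4 of 10 measured higher in tumor Foxp3+ and 8 of 11 in tumor Foxp3- cells. The G1 cyclin Ccnd3 was not among them, at 109 against 154 and 178 against 263 CPM. Cdc25b, a phosphatase that activates Cdk1, was 2.26 (1.63 to 3.09) and 5.02 (3.66 to 6.75) times the reference. E2F, MYB and FOXM1 factors had a list ratio of 0.983 (0.841 to 1.14) in tumor Foxp3+ cells, where 1 of 6 measured was higher and 2 were lower. For tumor Foxp3- cells it was 1.97 (1.67 to 2.32), with 4 of 7 higher and 0 lower, and in normal Foxp3- cells 2.52 (2.09 to 3.02). Rbl2, a pocket protein of quiescent cells, stood at 50.8 against 111 CPM in tumor Foxp3+ and at 47.8 against 45.5 in tumor Foxp3- members.

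The summed balance of replication to spindle transcripts differed between the groups. The replication lists (licensing and fork together) held 0.902 UMIs per spindle UMI (0.821 to 0.991) in tumor Foxp3+ members, 1.61 (1.45 to 1.78) in tumor Foxp3- and 2.78 (2.47 to 3.13) in normal Foxp3- members. The order of the sums held in cells with 8 or more rule-gene UMIs, at 0.763 (0.681 to 0.855), 1.52 (1.36 to 1.71) and 2.90 (2.54 to 3.32). Few cells carried much of these sums. In tumor Foxp3- 1 cell held 206 of 746 replication UMIs, and in tumor Foxp3+ 1 cell held 121 of 538. Replication UMIs exceeded spindle UMIs in 7 of 20, 6 of 14 and 8 of 10 of these cells. By this count per cell the 2 tumor states lay close together. In members thinned to 2417 UMIs the values were 1.04, 1.34 and 2.96, and in thinned cells with 8 or more 0.929, 1.06 and 3.26. The gap between the tumor states narrowed on thinning and the normal Foxp3- value stayed above both. Reference cells held 1.91, 2.59 and 2.17, so the order of the reference cells was different.

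Cell by cell, a list was counted as raised above the 99th percentile of deep reference cells, those at or above the 25th percentile of member UMI counts. In tumor Foxp3+, tumor Foxp3- and normal Foxp3- cells these numbered 82, 1511 and 104. The cutoffs were 2974, 2419 and 2195 CPM for replication and 1428, 1411 and 1017 CPM for spindle genes. Counts of raised cells in different strata thus rest on unlike cutoffs. Among cells with 8 or more rule-gene UMIs the replication lists were raised in 3 of 20 tumor Foxp3+, 5 of 14 tumor Foxp3- and 7 of 10 normal Foxp3- cells. Spindle genes were raised in 13, 10 and 9 of them. Among cells with 3 to 4 UMIs neither was raised in 19 of 21, 17 of 17 and 7 of 7. Replication CPM in single normal Foxp3- members ran from 390 to 11215 with a median of 1672, and in single tumor Foxp3+ members from 0 to 7538 with a median of 986. The 2 ranges overlapped. No cycle phase was assigned to a cell.

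**Figure D3:**
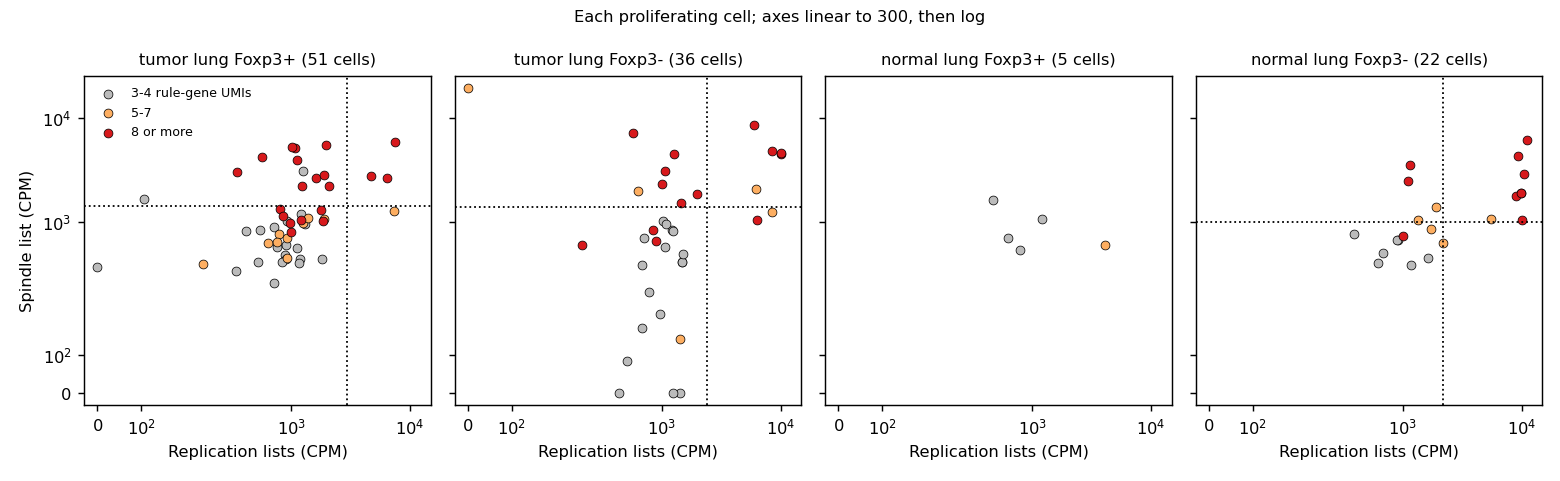
Each point is a member, with summed CPM of the replication lists on the horizontal and of the spindle list on the vertical axis, both linear to 300 and log above it, coloured by the number of rule-gene UMIs. Dotted lines mark the 99th percentile of deep reference cells and are left out for normal Foxp3+ cells, which had 3 such cells. Cells with 3 to 4 UMIs lie mostly below both lines, and 7 of 10 normal Foxp3- cells with 8 or more lie to the right of the vertical line.

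Quiescence genes and inhibitors of the cycle were lower in CPM, at ratios of 0.578 (0.547 to 0.611) in tumor Foxp3+, 0.464 (0.435 to 0.495) in tumor Foxp3- and 0.439 (0.405 to 0.475) in normal Foxp3- cells. The lower genes numbered 2 of 18 measured in tumor Foxp3+ cells, with 1 higher and a median log2 ratio of -0.65. They numbered 9 of 17 in tumor Foxp3- cells, with 1 higher and a median of -1.05. Btg1, an antiproliferative gene of resting lymphocytes, stood at 631 against 1736 CPM in tumor Foxp3+, 790 against 2193 in tumor Foxp3- and 349 against 1992 in normal Foxp3- cells. Klf2, a quiescence and trafficking factor, stood at 185 against 293, 354 against 914 and 843 against 1368. Counted per cell the list did not differ in the same way, at 26.7 against 20.7, 26.0 against 27.1 and 28.3 against 25.7 UMIs.

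Lists of energy metabolism had a higher summed CPM, with few genes past the 2-fold call. The nuclear-encoded respiratory chain list stood at 1.48 (1.43 to 1.53), 1.68 (1.62 to 1.76) and 1.78 (1.70 to 1.87) times the reference, though 0 of 19 and 6 of 19 measured genes were higher in the tumor strata. Cox4i1, of cytochrome oxidase, stood at 984 against 702, 1020 against 665 and 1062 against 668 CPM. Glycolysis genes had ratios of 1.25 (1.20 to 1.30), 1.67 (1.59 to 1.76) and 2.06 (1.94 to 2.18), with 0 of 15 measured higher and 1 lower in tumor Foxp3+, where the median log2 ratio was 0.13, and 3 of 13 higher and 0 lower in tumor Foxp3- cells, where 13.6% of all genes were higher. Gapdh stood at 1155 against 695, 1026 against 456 and 1300 against 425 CPM. Against deep reference cells the glycolysis ratio of tumor Foxp3+ members was 1.01 (0.966 to 1.06). Ribosome biogenesis differed little, at 0.973 (0.910 to 1.04), 1.13 (1.06 to 1.20) and 0.914 (0.837 to 0.996).

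Tumor Foxp3+ members had a lower CPM of activation and Treg genes than reference Foxp3+ cells, though not fewer of these UMIs per cell. The list of activation, costimulation and inhibitory receptors had a ratio of 0.710 (0.689 to 0.732), with 0 of 17 measured higher and 2 lower and a median log2 ratio of -0.59. The Treg list, which includes Foxp3, had a ratio of 0.748 (0.721 to 0.775), with 0 of 21 measured higher and 3 lower. Per cell, members held 90.6 activation and 64.6 Treg UMIs against 57.0 and 38.5. Tnfrsf9, the costimulatory receptor 4-1BB, stood at 620 against 1227 CPM. Tnfrsf4, which encodes OX40, stood at 1075 against 1622. The inhibitory receptor gene Ctla4 was level, at 1871 against 1831 CPM. Foxp3, which defined the stratum, stood at 515 against 821.

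Ccr8, a chemokine receptor of tissue Tregs that was named after its value was seen, stood at 317 against 623 CPM. Against the 82 deep reference cells the activation ratio was 0.785 (0.757 to 0.814) and the Treg ratio 0.861 (0.824 to 0.899). A UMI of Cd44, an adhesion receptor of activated T cells, with none of Ccr7, a lymph node homing receptor, was found in 13 of 51 members, 25.5% (14.3 to 39.6). The share was 23.3% (20.5 to 26.3) in reference and 29.3% (19.7 to 40.4) in deep reference cells, and these intervals overlapped. The IL-7 receptor gene Il7r stood at 437 against 741 CPM. IL-2 receptor and STAT5 target genes had a ratio of 0.713 (0.680 to 0.748), with Pim1, a STAT5-induced kinase, at 970 against 1469 CPM.

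For activation genes, Foxp3- members differed from Foxp3- reference cells in the opposite direction. In tumor lung the activation list had a ratio of 1.67 (1.59 to 1.76), with 7 of 15 measured higher and 0 lower. The naive and lymph node homing list had a ratio of 0.359 (0.331 to 0.388), with 8 of 11 measured lower and 1 higher and a median log2 ratio of -1.60. This list was below 1 in tumor Foxp3+ members too, at 0.672 (0.622 to 0.725) with 0 of 9 higher and 1 lower, as was the IL-2 receptor and STAT5 list in tumor Foxp3- members, at 0.887 (0.822 to 0.957). Ctla4 stood at 749 against 156 CPM and Icos, a costimulatory receptor gene, at 567 against 272. Ccr7 stood at 491 against 1022 CPM and Lef1, a transcription factor of naive T cells, at 252 against 686. The normal Foxp3- members showed the same directions, with ratios of 1.75 (1.63 to 1.87) for activation and 0.292 (0.264 to 0.322) for naive genes.

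Effector lists were also higher. Th1 and cytotoxic genes had a ratio of 4.63 (4.19 to 5.10) in tumor Foxp3- cells, with 7 of 8 measured higher and 0 lower, and 4.66 (4.28 to 5.06) in normal Foxp3- cells. Nkg7, a granule protein gene of cytotoxic cells, stood at 299 against 23.1 CPM in tumor and 606 against 46.6 in normal lung. Ccl5, a chemokine gene of effector cells, had ratios of 4.12 (3.32 to 5.06) and 2.53 (2.17 to 2.93). Th17 genes had ratios of 4.19 (3.22 to 5.37) and 8.26 (5.42 to 12.1), and rested on 66 and 28 UMIs, led by Tmem176b. Most members held none of them, with a Th17 UMI in 13 of 36 tumor and 4 of 22 normal Foxp3- members. In cells with 8 or more rule-gene UMIs the Th17 ratios were 1.94 (1.13 to 3.12) and 4.35 (1.86 to 8.65). Th2 genes had ratios of 5.34 (3.16 to 8.50) and 18.5 (13.0 to 25.7) on 19 and 42 UMIs. Of the normal ones 34 were of Ccr4, a chemokine receptor, and 7 were of Il13 in 1 cell.

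Ccr7 was seen in 81.6% (80.5 to 82.6) of Foxp3- reference cells in tumor lung and 90.6% (89.8 to 91.3) in normal lung. A Cd44 UMI without Ccr7 was found in 11 of 36 tumor Foxp3- members, 30.6% (16.3 to 48.1), against 3.77% (3.28 to 4.30) of the reference. In normal lung these were 27.3% (10.7 to 50.2) and 2.28% (1.93 to 2.67). The 210 tumor and 147 normal reference cells with Cd44 and no Ccr7 are called activated here. Set against them, the Foxp3- members were lower in Th1 and activation genes. Th2 genes did not follow in normal lung, with ratios of 0.674 (0.387 to 1.12) in tumor and 1.56 (1.04 to 2.30) in normal lung. The Th1 ratio was 0.741 (0.665 to 0.823) in tumor and 0.388 (0.355 to 0.423) in normal lung, and the activation ratio 0.767 (0.724 to 0.811) and 0.878 (0.811 to 0.950). These ratios set a mixed group against a selected one, since members were not chosen by Cd44 or Ccr7. Transcripts of Ccr7 were present in 17 tumor Foxp3- members out of 36, and in 11 normal ones out of 22. Whether members with Cd44 and no Ccr7 were also lower than the activated cells was not tested.

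The spindle and licensing lists were little altered by that choice of reference. Spindle genes had ratios of 4.47 (3.93 to 5.08) in tumor and 3.52 (3.01 to 4.11) in normal Foxp3- cells, and licensing genes 2.81 (2.44 to 3.24) and 5.26 (4.48 to 6.20). The naive list, which includes Ccr7 at 0 in the activated cells by choice, cannot be compared there.

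**Figure D4:**
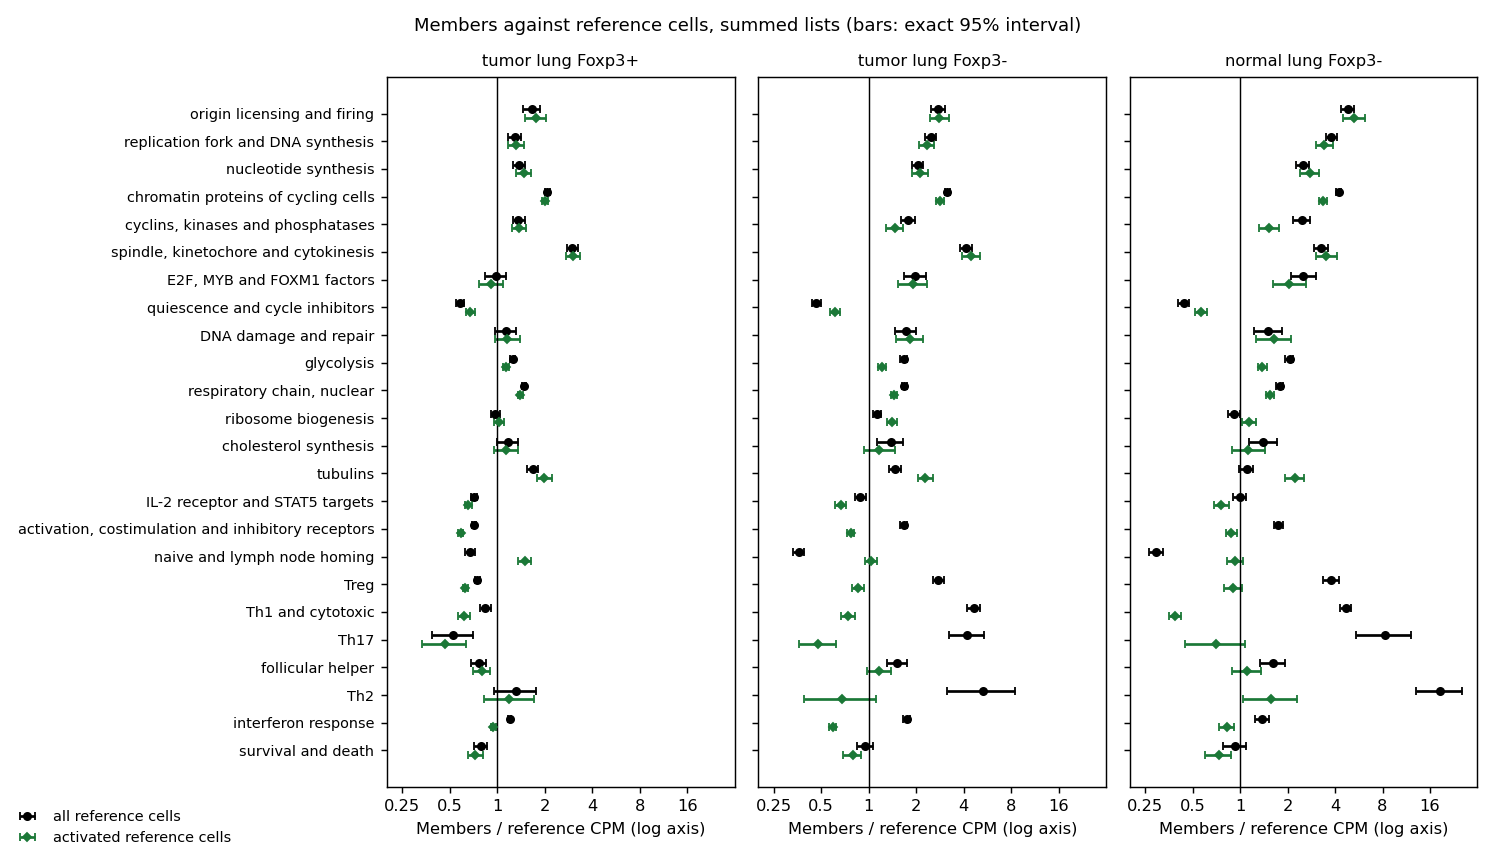
Ratio of summed CPM in members to reference cells (log axis) for each gene list in tumor Foxp3+, tumor Foxp3- and normal Foxp3- cells, with all reference cells as circles and activated reference cells, with a Cd44 UMI and none of Ccr7, as diamonds. Bars are exact 95% intervals. The licensing, chromatin and spindle lists lie right of 1 with either reference, while the Th1 list in Foxp3- cells moves from 4.63 to 0.741 in tumor and from 4.66 to 0.388 in normal lung.

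Among 4067 genes with enough counts, the 10 highest ratios in tumor Foxp3+ members were Cdca8, Stmn1, Knstrn, Nrm, Lgals3, Selenoh, Hmgn2, Anxa2, Hmgn5 and Hmgb2. Stmn1, a tubulin-binding protein of dividing cells, stood at 392 against 15.4 CPM and had a UMI in 28 of 51 cells. Knstrn, a kinetochore and spindle protein, stood at 94.3 against 4.08 CPM in 29 cells. Not all were cycle genes. Lgals3, which encodes galectin-3, stood at 334 against 68.9 CPM, and Anxa2, an annexin, at 586 against 142. Their ratios of 4.84 and 4.12 were 3.06 and 2.56 against deep reference cells. The 10 lowest were Laptm4b, Tmem42, 3110043O21Rik, Ephx1, Dnlz, Whamm, Bcl2, Lrig1, Srgap2 and Itgae. Bcl2, the survival protein, stood at 14.5 against 84.7 CPM on 8 UMIs, and Itgae, the integrin chain of tissue-resident lymphocytes, at 32.6 against 170.0 on 18. The other 8 had 0 to 7 UMIs in members.

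In tumor Foxp3- members the 10 highest of 2484 genes were Gm4316, S100a4, Anxa2, Lgals1, Nkg7, Stmn1, Lgals3, S100a6, Cxcr3 and Serpinb6b. Lgals1, which encodes galectin-1, stood at 1931 against 132 CPM and was seen in 31 of 36 cells. S100a4, a calcium-binding protein of memory T cells, stood at 360 against 22.2 and Cxcr3, a Th1 chemokine receptor, at 242 against 24.9. Against activated reference cells the ratios of these 3 were 2.57, 1.60 and 1.27, and that of Stmn1 was 28.3. The lowest were Ly6c1, Dph5, Plaur, Dapl1, Ifngr2, Atp1b1, Dirc2, Cnn3, Atp8a1 and Taf4b, at 1 to 8 UMIs in members. Ifngr2, the second chain of the interferon gamma receptor, stood at 25.5 against 277 CPM. Plaur, the urokinase receptor, stood at 12.7 against 168.

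The 5 normal Foxp3+ members held 18 rule-gene UMIs in all, and 4 of them had 3 to 4. Their licensing list had a ratio of 1.67 (1.11 to 2.42) and their spindle list 1.27 (0.907 to 1.73), and their chromatin list 2.13 (1.87 to 2.42). The licensing ratio rested on 1 cell, with 20 of the 31 UMIs. The 4 cells with 3 to 4 rule-gene UMIs stood at 276 CPM (138 to 494) in this list, against 374 in the reference. Too few cells were present to describe them further by gene.

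Tumor and normal Foxp3- members were also set side by side. Interferon response genes stood at 5483 CPM in tumor and 1952 in normal members, a ratio of 2.81 (2.52 to 3.13), and the same ratio in reference cells was 2.23 (2.20 to 2.26). Licensing genes stood at 1195 against 2045 CPM, a ratio of 0.584 (0.508 to 0.672), with 1.02 (0.994 to 1.05) in reference cells. The fork list was at 0.663 (0.591 to 0.745) and the chromatin list at 0.705 (0.665 to 0.748), while spindle genes were at 1.09 (0.955 to 1.24). Th1 and cytotoxic genes stood at 1370 against 2762 CPM, a ratio of 0.496 (0.437 to 0.562), which was also 0.499 (0.485 to 0.514) in reference cells. Of the normal Th1 UMIs 96 were of Gzma, a granzyme, in 4 cells. Th2 genes had a ratio of 0.309 (0.170 to 0.544) on 19 and 42 UMIs, with 1.07 in reference cells, and Th17 genes 1.61 (1.02 to 2.61), with 3.18 in reference cells. Foxp3+ members had an interferon ratio of 3.23 (2.77 to 3.80), and 3.89 (3.71 to 4.08) was that of their reference cells.

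Receptor sequences, read in separate libraries and not used by the rule beyond its chain filter, gave the clonal make-up. Of 96 members with a paired receptor, 72 were from tumor and 24 from normal lung. A clone was a set of identical V and J segments and CDR3 nucleotides within a library, and it was expanded at 2 or more kept cells. Among tumor Foxp3+ members 9 of 45 were in an expanded clone, 20.0% (9.58 to 34.6), against 28.5% (25.1 to 32.1) of reference cells. By the beta chain alone these shares were 15 of 46, 32.6% (19.5 to 48.0), and 32.7% (29.2 to 36.3). Among tumor Foxp3- members the share was 4 of 27, 14.8% (4.19 to 33.7), against 1.54% (1.20 to 1.95), and in normal Foxp3- cells 3 of 20 (3.21% to 37.9%), against 3.43% (2.94 to 3.97). Activated reference cells of these Foxp3- strata stood at 15.6%, 26 of 167, and 21.1% (14.0 to 29.7), both within the members' intervals.

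**Figure D5:**
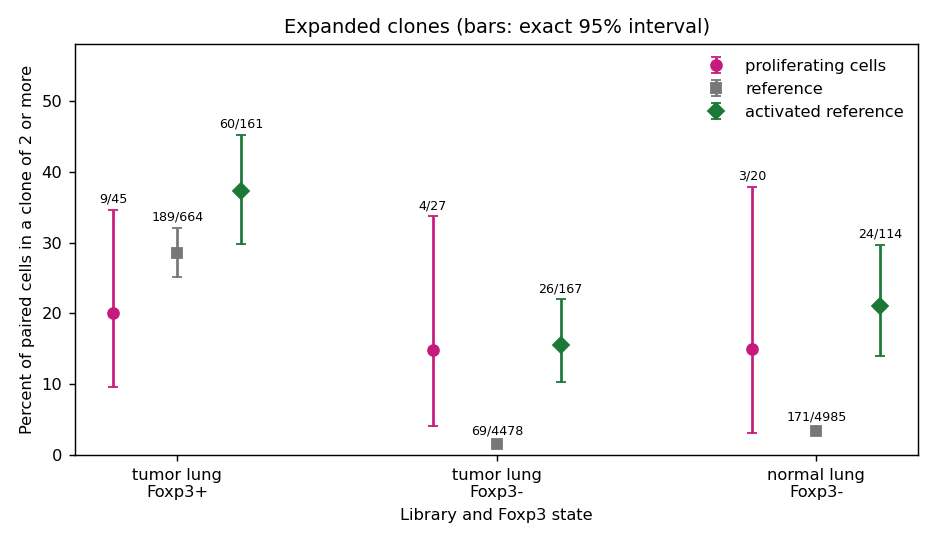
Percent of paired cells in a clone of 2 or more cells among members, all reference cells and activated reference cells, with exact 95% intervals as bars and the number of expanded cells of all paired cells above each. Foxp3- members stand at 4 of 27 in tumor and 3 of 20 in normal lung, above all reference cells at 1.54% and 3.43%, and the 9 of 45 tumor Foxp3+ members at 20.0% overlap their reference.

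The 72 paired tumor members fell into 71 clones and the 24 normal ones into 24. Members were thus spread over many receptors, and 0 clones with a member were found in both libraries. The largest tumor clone with a member had 8 cells, all Foxp3+, and the largest normal one had 28 cells, with 1 member of 6 rule-gene UMIs. A single clone held 2 members. Its cells, both Foxp3+, had 4 and 21 rule-gene UMIs and used TRAV13-2 with TRAJ30 and TRBV13-3 with TRBJ2-7. Its CDR3s are shown because both of its cells met the rule, with the alpha locus on chromosome 14 and the beta locus on chromosome 6.
clone 7 alpha: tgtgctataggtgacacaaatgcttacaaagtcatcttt
clone 7 beta: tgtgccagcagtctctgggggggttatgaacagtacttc

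Tumor Foxp3+ members also shared receptor segments across clones. Clone 1, of 8 cells, and clone 2, of 6, each with 1 member, joined TRAV12-2 to TRAJ48 and used TRBV1, with TRBJ1-3 in the first and TRBJ2-5 in the second. Trav12-2 lies at chr14:53616397-53616914, Traj48 at chr14:54169808-54169868 and Trbv1 at chr6:40891296-40891885 in GRCm38.p6, and a CDR3 spans the junction of its segments. Capitals mark the positions at which the 2 clones differ, 5 of 45 in alpha and 5 of 39 in beta.
clone 1 alpha: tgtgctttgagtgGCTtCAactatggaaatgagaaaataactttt
clone 2 alpha: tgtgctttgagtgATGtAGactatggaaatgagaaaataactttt
clone 1 beta: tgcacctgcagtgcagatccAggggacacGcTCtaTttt
clone 2 beta: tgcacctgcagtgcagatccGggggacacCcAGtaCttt

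This combination was carried by 15 of 896 paired tumor Foxp3+ cells, 1.67% (0.940 to 2.75), in 3 clones, and 3 of the 15 were members. It was found in 0 of 4809 tumor Foxp3- cells, which allows up to 0.0767% by the exact interval. In normal lung it was found in 0 of 151 Foxp3+ and 0 of 5309 Foxp3- cells, which allows up to 2.41% and 0.0695%. The receptor was singled out after the members' clones had been seen.

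A further set, clones 4, 10 and 11 of 4, 2 and 2 Foxp3+ cells, each had 1 member and joined TRAV13D-2 to TRAJ27 with a beta chain named for TRBV12-2 and TRBV13-2 together. Their members held 23, 3 and 18 rule-gene UMIs. Trav13d-2 lies at chr14:52942764-52943289 and Traj27 at chr14:54192303-54192361. Clones 4 and 10 had the same alpha CDR3 and clone 11 differed from it at 2 of 39 positions, marked in capitals.
clone 4 alpha: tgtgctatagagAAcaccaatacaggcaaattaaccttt
clone 10 alpha: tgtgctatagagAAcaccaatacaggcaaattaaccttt
clone 11 alpha: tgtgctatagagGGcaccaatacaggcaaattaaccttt

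The segment set was in 19 of 896 paired tumor Foxp3+ cells, 2.12% (1.28 to 3.29), in 7 clones. It was in 0 of 4809 tumor Foxp3- cells and in 3 of 5309 normal Foxp3- cells, 0.0565% (0.0117 to 0.165). It too was chosen after the clones were seen, and whether the members carried it more often than other tumor Foxp3+ cells was not tested.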

How the data were processed

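The deposited files were, per the file headers, Cell Ranger 3.1.0 matrices of UMI counts per gene and barcode, 1 per library, with the authors' tables of receptor contigs. The submitters' processing notes name mm10. The counts were used as deposited, with no rescaling by the authors, and CPM was computed from sums over cells. Cells with 500 or more genes, under 10% mitochondrial UMIs, at most 2 productive alpha chains and at most 1 productive beta chain were kept. The chain filter was the only step against doublets, and no caller was run. Members and gene lists were chosen with earlier results of these data known. Because there was 1 library per tissue and the cells of a library are not replicates, no test was run and no p-value is given. Ratios carry exact conditional intervals, shares Clopper-Pearson intervals and levels exact Poisson intervals, all at 95%. They cover counting error only, and a count of 0 was set against a floor of 3 counts. Per-gene contrasts used strata with 30 or more members. The named genes were the 10 highest and 10 lowest ratios of a contrast among genes with 50 or more UMIs in the higher group and a UMI in at least 10% of its cells, without the rule genes, Foxp3, receptor and immunoglobulin segments and ribosomal, mitochondrial, hemoglobin and sex-linked genes. The named members of each list were mainly those with the most UMIs in members, and Bcl2 was first named by its low ratio in tumor Foxp3+ cells. Alternatives changed the UMI minimum, depth, reference cells, scaling, CPM minimum, cell filters and the definition of a clone, and 3 of them, a minimum of 8 UMIs, at least 2 different rule genes and reference cells with Cd44 and no Ccr7, were chosen after seeing the data. The last took the place of a planned reference that is not reported here. Promoters and coordinates came from RefSeq GRCm38.p6, with the first row used where a symbol had several. The scripts were tested on simulated data and ran in Python 3.11.15 with numpy 2.4.6, scipy 1.17.1, pandas 2.3.3 and matplotlib 3.10.9.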

Additional observations from a re-analysis of the deposited data

Results flagged for a closer look

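Relative to reference cells, members of the tumor library differed in opposite directions in the 2 Foxp3 states for 5 lists of T cell state. The ratio was 0.710 in Foxp3+ and 1.67 in Foxp3- cells for activation, costimulation and inhibitory receptors, and 0.748 and 2.77 for Treg genes, whose list includes Foxp3. It was 0.841 and 4.63 for Th1 and cytotoxic genes, 0.525 and 4.19 for Th17 genes and 0.761 and 1.51 for follicular helper genes. Against activated reference cells the Foxp3- ratios were 0.767, 0.855, 0.741, 0.477 and 1.16 in the same order. The direction then differed only for follicular helper genes, at 0.796 (0.702 to 0.900) in Foxp3+ cells. The interval of their Foxp3- ratio, 0.976 to 1.38, included 1. The members, unlike that reference, were not restricted to cells without Ccr7. The difference between the Foxp3 states was not tested, since each state is 1 group of cells from 1 library. Reference levels differed as well: the Treg list stood at 7985 CPM in Foxp3+ and 687 in Foxp3- reference cells, and the members at 5969 and 1905.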

How the results depend on the processing

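The share of members followed the UMI rule. For tumor Foxp3+ cells the 4.45% became 8.54% at a minimum of 2 UMIs, 2.62% at 5, 1.74% at 8 and 0.900% after thinning. For tumor Foxp3- cells the 0.601% became 1.35%, 0.317% and 0.234% at 2, 5 and 8 UMIs and 0.418% with 2 or more different rule genes. For normal Foxp3+ cells the 2.43% became 0.485% at 5 UMIs, 0% at 8 and 0% after thinning, and for normal Foxp3- cells the 0.320% became 0.698% at 2, 0.145% at 8 and 0.145% after thinning.

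In tumor Foxp3+ cells the 142 higher genes became 238 and 324 at 5 and 8 UMIs and 60 at a mean CPM of 50, and the 302 lower genes became 492, 618 and 100, with 185 against deep reference cells. In tumor Foxp3- cells the 726 higher genes became 324 against activated reference cells, 1102 at 8 UMIs, 449 under the median of ratios and 361 at a CPM of 50, and the 298 lower genes became 460 and 519 at 5 and 8 UMIs, 468 under the median of ratios and 123 at a CPM of 50.

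Among list ratios past the 2-fold call, those that crossed 1 did so against the activated reference. In tumor Foxp3- cells naive genes became 1.04, Treg 0.855, Th1 0.741, Th17 0.477 and Th2 0.674. In normal Foxp3- cells Treg became 0.904, Th1 0.388 and Th17 0.708, and in normal Foxp3+ cells tubulins became 1.25 and naive genes 1.16. Ratios inside the 2-fold call crossed 1 as well, the following among them. Against the activated reference, activation became 0.767 and interferon response 0.592 in tumor Foxp3- cells (1.67 and 1.74), activation 0.878 and interferon response 0.821 in normal Foxp3- cells (1.75 and 1.38), and naive genes 1.49 and interferon response 0.946 in tumor Foxp3+ cells (0.672 and 1.20). At 8 UMIs the tumor Foxp3+ ratios of Th2 and interferon genes became 0.775 and 0.901 (1.31 and 1.20). Ccr7 is at 0 in that reference by construction, and beyond this the cause was not tested.

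Between tissues in Foxp3- members, the licensing ratio of 0.584 became 0.479 as a mean over cells and the interferon ratio of 2.81 became 3.28 at 5 UMIs. The replication to spindle ratio of 0.902 in tumor Foxp3+ members became 1.04 after thinning and 0.763 at 8 UMIs, and the 1.61 of tumor Foxp3- members became 1.34 after thinning. The expanded share of reference cells became 32.7% by beta chain alone, where members stood at 32.6%, and 37.3% in activated cells for tumor Foxp3+ (28.5%), 2.31% (members 21.4%) and 15.6% for tumor Foxp3- (1.54%) and 6.84% and 21.1% for normal Foxp3- (3.43%), and 20.0% in activated cells for normal Foxp3+ (5.11%).

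No paired analysis was possible because each tissue has 1 library and no test was run. Leaving out a library was not possible for the same reason, and the CPM minimum of 50 was not run between tissues, where lists are summed over all their genes.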

Other observations

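Some gene groups outside the cycle also differed between members and reference cells. Tubulin genes stood at 1345 against 803 CPM in tumor Foxp3+ members, a ratio of 1.68 (1.55 to 1.82), and at 1848 against 1254 in tumor Foxp3- members, a ratio of 1.47 (1.35 to 1.60). A few abundant genes carried these sums: 2 of 7 measured were higher and 1 lower in tumor Foxp3+ cells, and 3 of 8 higher and 1 lower in tumor Foxp3- cells, where the median log2 ratio was -0.31. In normal lung the list ratio was 1.10 (0.987 to 1.21) in Foxp3- and 0.441 (0.302 to 0.623) in Foxp3+ cells. Tubb5, a beta-tubulin, stood at 702 against 317 and 943 against 386 CPM, and Tuba1b, an alpha-tubulin, at 205 against 77.0 and 484 against 169. Cholesterol synthesis genes had ratios of 1.17 (1.00 to 1.35), 1.38 (1.13 to 1.66) and 1.40 (1.14 to 1.71) in tumor Foxp3+, tumor Foxp3- and normal Foxp3- cells. Survival and death genes had ratios of 0.788 (0.716 to 0.866), 0.948 (0.841 to 1.06) and 0.923 (0.777 to 1.09). Of genes measured, 1 of 12 was higher and 3 were lower in tumor Foxp3+ cells, with a median log2 ratio of -0.36, and 5 of 10 were higher and 2 lower in tumor Foxp3- cells, with a median of 1.03. Within that list Bcl2, which blocks apoptosis, was 1 of the 2 lower genes in tumor Foxp3- members, at 54.2 against 299 CPM. In normal Foxp3- members Bcl2 stood at 23.3 against 206 CPM.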
